A study of Homo sapiens with 12 samples.

Results

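Expression of 10 genes of the kinetochore and the spindle checkpoint was followed in HEK293 cells that had received a mimic of the microRNA miR-1825 or a control RNA. The 10 genes are SKA1, SKA3, KNL1, ZWINT, CENPH, CENPK, KIF18A, SGO1, KNTC1 and MAD2L1. They were picked by name, out of 14884 genes with a named row in the deposited table, after results of the same comparison were known, and each had 1 row. Their differences between mimic and control are therefore a description and carry no test. HEK293 is an adenovirus-transformed human embryonic kidney line, and a single line was used. Per the labels, 6 samples were transfected with Syn-hsa-miR-1825 and 6 with the AllStars Negative Control siRNA, each at 5 nM with the HiPerfect reagent, and total RNA was isolated 24 h later. No untransfected cells were among the samples, so any response to transfection shared by both groups does not appear in the comparison. Nothing in the labels tells whether the replicates were separate cultures, and p-values then cover no more than the spread between these 12 samples, possibly of technical origin.

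The kinetochore is the protein assembly that joins each centromere to spindle microtubules in mitosis. Its inner layer, the constitutive centromere-associated network, sits on centromeric chromatin, and its outer layer, the KMN network of KNL1, Mis12 and Ndc80 complexes, grips microtubules. Kinetochores without proper attachment recruit MAD1 and MAD2, which hold back the anaphase-promoting complex and so delay the separation of sister chromatids. Transcripts of many of these genes peak in G2 and mitosis in cycling cells.

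The transfected RNA, which is what differed between the groups, and the start regions of the genes are shown first. The start regions are a description, and their relation to the differences between the groups was not tested. The mature miR-1825 sequence of RefSeq (GRCh38.p14, chr20:32237830-32237847, plus strand) is given with its seed, bases 2 to 8, in capitals. Whether the 10 mRNAs hold matches to this seed was not analysed here.
hsa-miR-1825: uCCAGUGCccuccucucc

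RefSeq start windows, which run from 250 bases before to 50 bases after a gene's annotated start, were matched by symbol for 7 of the 10 genes. They were searched on both strands for the cell cycle genes homology region (CHR, here TTTGAA or TTCGAA), the box CCAAT, and an E2F word of 8 letters (TTTCCCGC, TTTGGCGC, TTTCGCGC or TTTGCCGC). In cell cycle genes the CHR is known as the contact of the DREAM and MuvB complexes, CCAAT as that of NF-Y, and the E2F word as that of E2F factors. A gene was counted where any of its windows held the word. A CHR word was present in 6 of the 7 genes, against 19.5% of all 27305 genes with windows of the same length. CCAAT was present in 5 of 7, against 39.7% of all genes, and both words in 4 of 7, against 9.02%. The E2F word was in 0 of 7 and in 3.99% of all genes. CHR words were also present in 21 of 38 other kinetochore genes with a window and in 9 of 15 genes of mitotic entry and exit, so the word is not particular to the 10. The 5 sequences below are shown because a CHR word, a CCAAT box, or both lie within the stretch printed. Each runs from 100 bases before to 10 bases after the annotated start on the gene's strand, here the minus strand of GRCh38.p14 in all 5, with CHR and CCAAT words on either strand in capitals. A match describes letters only and is not a measured binding site.
SGO1, chr3:20186197-20186306: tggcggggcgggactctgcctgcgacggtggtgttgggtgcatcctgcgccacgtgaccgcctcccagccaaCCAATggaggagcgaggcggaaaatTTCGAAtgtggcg
SKA3, chr13:21176543-21176652: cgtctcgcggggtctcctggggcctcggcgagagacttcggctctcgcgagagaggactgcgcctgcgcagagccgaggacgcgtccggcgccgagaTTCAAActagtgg
KIF18A, chr11:28108147-28108256: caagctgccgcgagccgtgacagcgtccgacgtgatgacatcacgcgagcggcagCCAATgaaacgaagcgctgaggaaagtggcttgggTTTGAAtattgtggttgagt
ZWINT, chr10:56361250-56361359: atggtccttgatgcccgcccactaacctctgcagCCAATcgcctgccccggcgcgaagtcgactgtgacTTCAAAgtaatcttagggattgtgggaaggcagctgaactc
CENPK, chr5:65563159-65563268: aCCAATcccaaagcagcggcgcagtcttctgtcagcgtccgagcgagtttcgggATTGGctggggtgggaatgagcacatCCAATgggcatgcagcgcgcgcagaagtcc

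In these windows the CHR word began 3 bases before the start in SGO1 and SKA3, 10 before it in KIF18A and 31 before it in ZWINT, which has a further annotated start 14 bases upstream. In MAD2L1 and SKA1 the word lay after the start, at positions 25 and 35 counted from 1 at the start. The CCAAT box of MAD2L1 lay far from its CHR word, at 229 bases before the start. CENPK held no CHR word but 3 CCAAT boxes, at 99, 46 and 20 bases before its start.

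Expression was measured on 12 Affymetrix Human Gene 2.0 ST arrays, and the deposited table gives 1 log2 value per array for each of 53617 transcript clusters, the array's probe groups, each standing for a gene or transcript. Array medians lay between 4.44 and 4.51, and arrays correlated at a mean of 0.992 within groups and 0.991 between groups. With limma over all clusters, 6 of 53617 passed an adjusted p of 0.05 (0.0112%), 5 of them higher and 1 lower after the mimic. That count rested on single arrays: it was 6 without control replicate 5, 5 without control replicate 6, 2 without mimic replicate 3 or the control array numbered 4, and 0 without any other array. Of the HEK293 check genes PAX2, LHX1, EYA1 and VIM, each mean lay above the array medians, from 5.60 to 8.05, and the other 3 listed were not analysed here. The leukocyte markers CD14 and LYZ and the fibroblast marker DCN had means of 3.86, 3.02 and 2.66, below every array median, while the fibroblast marker LUM had 5.71 and the epithelial genes EPCAM, KRT18 and KRT8 had 7.95, 9.68 and 6.28. Of the 11 check and marker genes measured, 0 passed the limma test. The keratin gene KRT18 was the 1 with an unadjusted p under 0.05, with a log2 difference of -0.10 (mimic minus control). At that unadjusted p, 5.4% of all clusters were lower and 5.36% higher. In bulk RNA, a larger share of cells in G2 or mitosis and more mRNA of these genes per cell cannot be told apart.

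All 10 genes had higher means after the mimic, with log2 differences (mimic minus control) of 0.11 to 0.24 and a median of 0.15. Over all clusters 46.6% had higher means and the median difference was -0.01. Among the brightest 25% of clusters, to which all 10 belong with means of at least 7.64, 59.2% had higher means and the median difference was 0.02. In 6 of the 10 (SKA1, KNL1, CENPH, KIF18A, SGO1 and KNTC1) every mimic array lay above every control array, as in 0.759% of all clusters and 2.52% of the brightest 25%. Nothing is read from these counts, since the genes were chosen with this contrast known. After quantile normalization the groups of SGO1 overlapped and those of the other 5 did not, all 10 means were higher, and the median was 0.13.

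**Figure D1:**
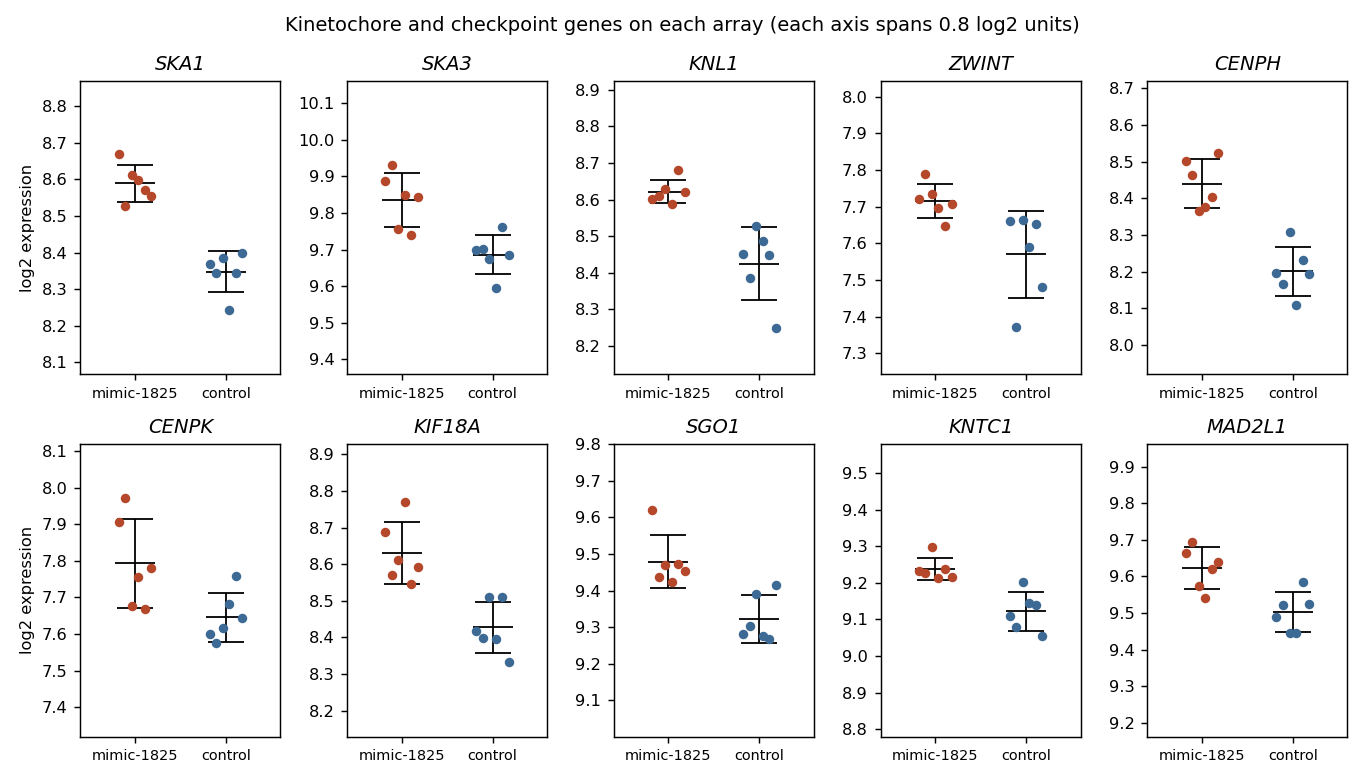
Log2 expression of the 10 genes on each array, mimic-1825 on the left of each panel and control on the right, with bars at the mean ± SD (n = 6 arrays each); every vertical axis spans the same log2 width, although its position differs by gene. The groups do not overlap in SKA1, KNL1, CENPH, KIF18A, SGO1 and KNTC1, and they overlap in SKA3, ZWINT, CENPK and MAD2L1.

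The Ska complex, in which SKA1 carries the microtubule-binding domain and SKA3 binds the Ndc80 complex, keeps kinetochores on the ends of shortening microtubules. SKA1 values ran from 8.53 to 8.67 with a median of 8.58 on mimic arrays, and from 8.24 to 8.40 with a median of 8.36 on control arrays. All mimic arrays were higher than all controls by at least 0.13 log2 units, the widest gap among the 10 genes. The log2 difference was 0.24 with a standard error (SE) of 0.04, or 1.18-fold. SKA3 ran from 9.74 to 9.93 with a median of 9.85 on mimic arrays, and from 9.60 to 9.76 with a median of 9.69 on controls. The groups met at their edges: 4 of 6 mimic arrays were above the highest control, and mimic replicates 3 and 5 were not. Its log2 difference was 0.15 (SE 0.05). SKA2, the remaining subunit and not among the 10, averaged 9.13 ± 0.04 after the mimic and 9.09 ± 0.04 in controls (SD, n = 6 each), a log2 difference of 0.04 that did not pass (limma adjusted p = 0.769).

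KNL1 is the scaffold of the outer kinetochore that docks BUB1 and BUB3, and ZWINT binds KNL1 and helps to bring in the RZZ complex. KNL1 ran from 8.59 to 8.68 with a median of 8.61 on mimic arrays, and from 8.25 to 8.53 with a median of 8.45 on controls. The mimic arrays were packed closely (SD 0.03) and the controls were spread (SD 0.10), with control replicate 6 the lowest. Its log2 difference was 0.20 (SE 0.05), and it was 0.16 without control replicate 6. ZWINT ran from 7.65 to 7.79 with a median of 7.71 on mimic arrays, and from 7.37 to 7.66 with a median of 7.62 on controls. Control replicates 2 and 6, at 7.37 and 7.48, lay below the other controls, and 5 of 6 mimic arrays lay above the highest control. The log2 difference of ZWINT was 0.15 (SE 0.06), and 0.11 without control replicate 2.

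CENPH and CENPK are subunits of 1 subcomplex of the inner kinetochore, together with CENPI and CENPM. CENPH ran from 8.37 to 8.52 with a median of 8.43 on mimic arrays, and from 8.11 to 8.31 with a median of 8.19 on controls. The groups were apart, and the log2 difference of 0.24 (SE 0.05, 1.18-fold) was close to that of SKA1. CENPK ran from 7.67 to 7.97 with a median of 7.77 on mimic arrays, and from 7.57 to 7.76 with a median of 7.63 on controls. It had the widest mimic spread of the 10 (SD 0.12), because mimic replicates 1 and 2, at 7.91 and 7.97, stood above the other 4. Only 3 mimic arrays were above the highest control, and the log2 difference was 0.15 (SE 0.06). CENPI averaged 8.53 ± 0.06 after the mimic and 8.41 ± 0.10 in controls (SD, n = 6 each), a log2 difference of 0.12 (limma adjusted p = 0.474). CENPM averaged 7.70 ± 0.07 after the mimic and 7.81 ± 0.09 in controls (SD, n = 6 each), a difference of -0.10 with all 6 mimic arrays below the control mean (limma adjusted p = 0.528). The 4 subunits thus had means on both sides of the control.

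KIF18A is a kinesin of the kinesin-8 family that damps the movements of chromosomes at the spindle equator. It ran from 8.55 to 8.77 with a median of 8.60 on mimic arrays, and from 8.33 to 8.51 with a median of 8.41 on controls. The groups were apart by 0.03 log2 units, with mimic replicate 4 the highest array, and the log2 difference was 0.20 (SE 0.05, 1.15-fold). KIF18B, a kinesin-8 relative, had a difference of 0.01 (limma adjusted p = 0.981). Its sign turned to -0.0195 after quantile normalization.

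SGO1, shugoshin, guards centromeric cohesion until anaphase. It ran from 9.42 to 9.62 with a median of 9.46 on mimic arrays, and from 9.27 to 9.42 with a median of 9.29 on controls. The groups were apart by 0.01 log2 units only, and mimic replicate 1 stood above the other mimic arrays. The log2 difference was 0.16 (SE 0.05), and 0.13 without that array. A search of RefSeq by symbol found 2 pseudogenes of SGO1 and 1 of MAD2L1. Their transcripts might bind the same probes, so both assignments are uncertain to that extent. Probe sequences were not compared, so similar transcripts under other names were not looked for in any of the genes. SGO2, the second shugoshin, averaged 6.55 ± 0.07 after the mimic and 6.44 ± 0.10 in controls (SD, n = 6 each), a log2 difference of 0.11 (limma adjusted p = 0.498). Its difference was 0.07 without control replicate 2, the lowest control.

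KNTC1, also called ROD, is a subunit of the RZZ complex, which brings dynein and the MAD1-MAD2 pair to the kinetochore, and MAD2L1 encodes MAD2, the checkpoint protein that binds CDC20. KNTC1 ran from 9.21 to 9.30 with a median of 9.23 on mimic arrays, and from 9.06 to 9.20 with a median of 9.13 on controls. The groups were apart by 0.01 log2 units, and the difference of 0.11 (SE 0.04, 1.08-fold) was the smallest of the 10. MAD2L1 ran from 9.54 to 9.69 with a median of 9.63 on mimic arrays, and from 9.44 to 9.59 with a median of 9.51 on controls. Control replicate 5, the highest control, lay above mimic replicates 3 and 4, and the log2 difference was 0.12 (SE 0.04).

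Other kinetochore and checkpoint genes were listed by complex, with earlier results known, 59 genes in all, of which 45 had a named row. They are what remained of these complexes once the 10 genes picked from the same contrast had been set aside. All 45 belong to the brightest 25% of clusters. None of the 45 passed the limma test over all clusters, where 0.0112% of clusters did. At an unadjusted p under 0.05 there were 4 higher genes (CENPC, ITGB3BP, MIS18A and TTK), against 5.36% of all clusters and 11.6% of the brightest 25%. There were 2 lower ones (CENPX and CLASP1), against 5.4% and 4.46%. In total 34 had higher and 11 lower means, and the median log2 difference was 0.04, against -0.01 over all clusters and 0.02 in the brightest 25%. After quantile normalization the means of 29 were higher and those of 16 lower, and the median was 0.0198. In 0 of the 45 did every mimic array lie above every control array, as in 0.759% of all clusters and 2.52% of the brightest 25%, or below every control, as in 0.414% and 0.776%.

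**Figure D2:**
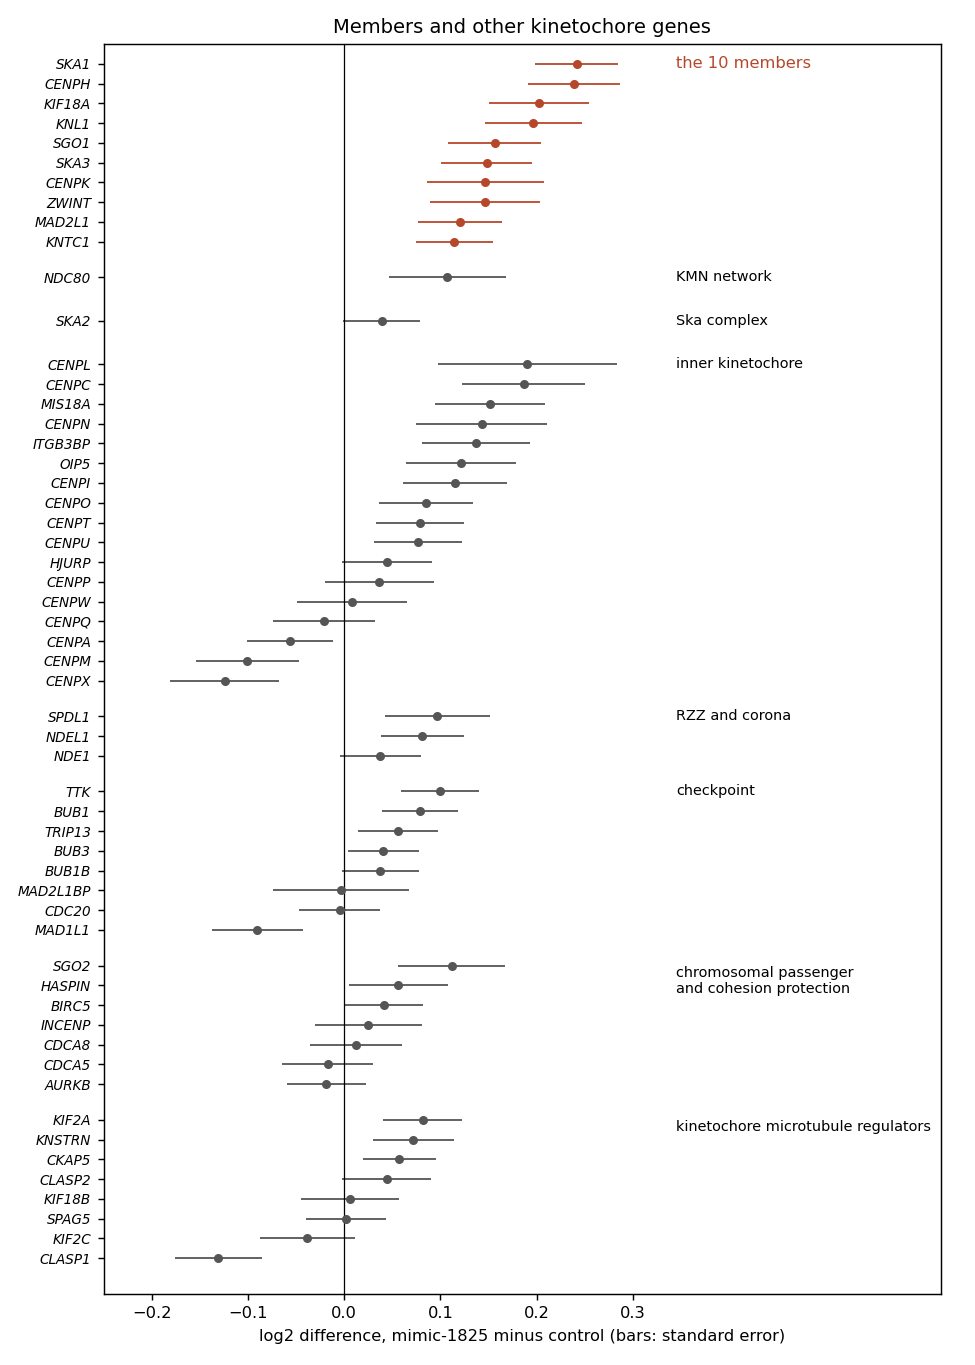
Log2 difference (mimic-1825 minus control, horizontal axis) with its standard error for the 10 genes, in red, and for 45 other kinetochore genes, in grey, grouped by complex. The 10 genes, which were chosen with this contrast known, run from 0.11 to 0.24, and the others run from -0.13 to 0.19.

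The inner kinetochore group held most of the larger differences among the other genes. Means were higher in 13 of its 17 measured genes and lower in 4, and the median log2 difference was 0.08. CENPC, which links centromeric chromatin to the outer kinetochore, averaged 7.44 ± 0.11 after the mimic and 7.25 ± 0.10 in controls (SD, n = 6 each), a log2 difference of 0.19 (limma adjusted p = 0.331). CENPL differed by 0.19, MIS18A, a factor for loading the centromeric histone, by 0.15, and CENPN by 0.14. On the other side CENPX differed by -0.12 and the centromeric histone gene CENPA by -0.06. These values were all short of the test, with limma adjusted p-values of 0.331 or more.

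Checkpoint genes had smaller differences, with 5 of 8 means higher, 3 lower and a median of 0.04. TTK, the kinase MPS1 that starts checkpoint signalling, averaged 9.99 ± 0.04 after the mimic and 9.89 ± 0.05 in controls (SD, n = 6 each), a log2 difference of 0.10 (limma adjusted p = 0.412). BUB1, the kinase docked on KNL1, differed by 0.08, TRIP13, which helps to dismantle checkpoint complexes, by 0.06, BUB3 by 0.04 and BUB1B by 0.04. MAD1L1, the partner that carries MAD2 to the kinetochore, averaged 6.38 ± 0.08 after the mimic and 6.47 ± 0.05 in controls (SD, n = 6 each). All 6 mimic arrays lay below the control mean of MAD1L1, and its difference of -0.09 did not pass (limma adjusted p = 0.520). CDC20, the target of the checkpoint, averaged 11.12 ± 0.03 after the mimic and 11.12 ± 0.06 in controls (SD, n = 6 each), with a difference of -0.005 that turned to 0.0103 when arrays were centred on their medians.

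Of the remaining partners, NDC80, the microtubule-binding subunit of the outer kinetochore, differed by 0.11 (limma adjusted p = 0.557). SPDL1, the Spindly adaptor that links RZZ to dynein, differed by 0.10 (limma adjusted p = 0.557). NDC80 was the 1 gene measured of 8 listed for the KMN network besides KNL1 and ZWINT, and 10 of the 24 partner genes listed had no named row and were not analysed here. Chromosomal passenger and cohesion genes had 5 of 7 means higher, with a median of 0.03. AURKB, the kinase that corrects faulty attachments, differed by -0.02 and BIRC5, survivin, by 0.04. Kinetochore microtubule regulators had 6 of 8 means higher and a median of 0.02. CLASP1, which promotes microtubule growth at kinetochores, had the lowest value of the 45, with a log2 difference of -0.13 and all 6 mimic arrays below the control mean.

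The level of each list on each array was set as the mean of its log2 values minus the mean of all 14884 named genes. For the 10 genes this was 2.73 ± 0.04 after the mimic and 2.56 ± 0.04 in controls (SD, n = 6 each), a difference of 0.17. The mimic arrays ran from 2.69 in replicate 5 to 2.79 in replicate 1, and the controls from 2.51 in replicate 2 to 2.61 in replicate 5. For the 45 other kinetochore genes it was 2.63 ± 0.03 after the mimic and 2.58 ± 0.02 in controls, and the groups overlapped. Genes of mitotic entry and exit, the functional group nearest to the kinetochore, averaged 2.89 ± 0.04 after the mimic and 2.86 ± 0.02 in controls, with 11 of 18 means higher and a median log2 difference of 0.03. In both of these lists mimic replicates 1, 2 and 3 were the highest arrays, whereas among the 10 genes replicate 3 was the second lowest mimic array. Within the mitotic list CCNB1, cyclin B1, was the 1 gene of 18 with every mimic array above every control (0.759% of all clusters and 2.52% of the brightest 25%), at a log2 difference of 0.20 (SE 0.04, limma adjusted p = 0.189). With limma over all clusters 0 of these 18 passed, and passing in the alternative fits was not counted for this list. At an unadjusted p under 0.05 there were 4 higher genes, against 5.36% of all clusters and 11.6% of the brightest 25%. There was 1 lower, against 5.4% and 4.46%. The difference of lists was not tested. Nothing is read from the gap in the level of the 10 genes, since they were chosen with this contrast known.

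**Figure D3:**
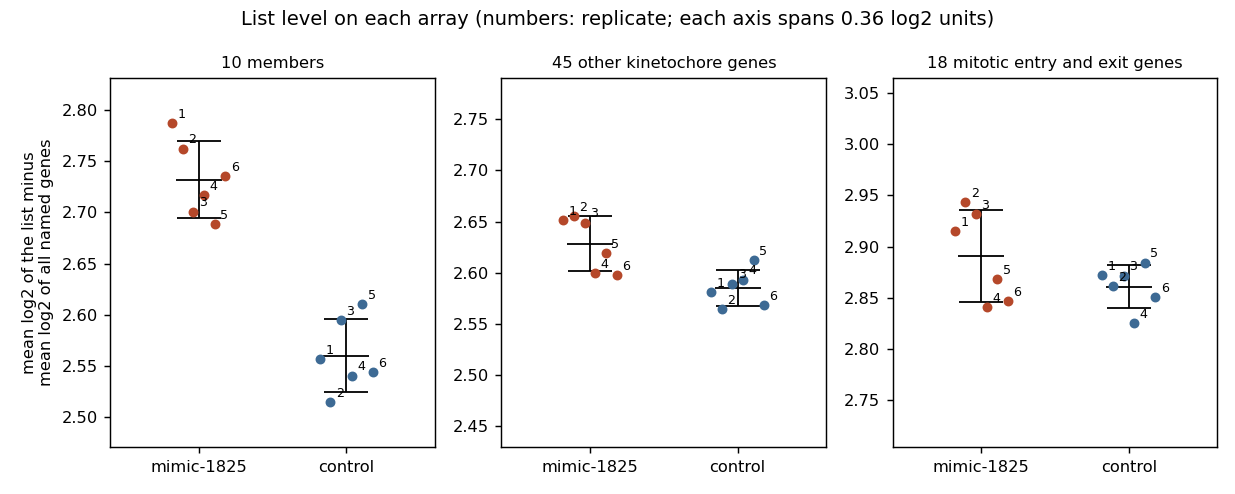
Mean log2 value of each list minus the mean of all named genes on each array (vertical axis, same width in all panels), mimic-1825 left and control right, with replicate numbers and bars at the mean ± SD (n = 6 arrays each). The 10 genes were chosen with this contrast known. Their mimic arrays run from 2.69 to 2.79 and their controls from 2.51 to 2.61. The groups overlap in the other 2 lists.

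How the 10 genes varied among themselves was described from deviations from the group means, which remove the difference between mimic and control. Over 12 arrays the Pearson correlation of these deviations had a median of 0.16 over the 45 pairs of genes and ran from -0.38 (KNTC1 with MAD2L1) to 0.79 (KNL1 with KNTC1). Of the 45 pairs, 8 were above 0.5, or 17.8%, against 85 of 990 pairs among the 45 other kinetochore genes, or 8.59%, and 4 of 91 pairs among the 14 measured partners, or 4.40%. The medians of those sets were 0.09 and 0.16. The genes did not vary as 1 block. KNL1, KNTC1 and ZWINT varied together, with values of 0.79, 0.61 and 0.52 among them, and SKA3, CENPK and MAD2L1 did so too, with 0.74, 0.67 and 0.63. SKA1 went with SGO1 at 0.72, and more closely than with SKA3, its partner in the Ska complex, at 0.21. CENPH and CENPK, of the same subcomplex, had 0.38. These groupings were seen in the data and carry no test, and all points share the array, its RNA and its scaling. The median over pairs was 0.32 with arrays centred on their medians and 0.11 after quantile normalization.

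**Figure D4:**
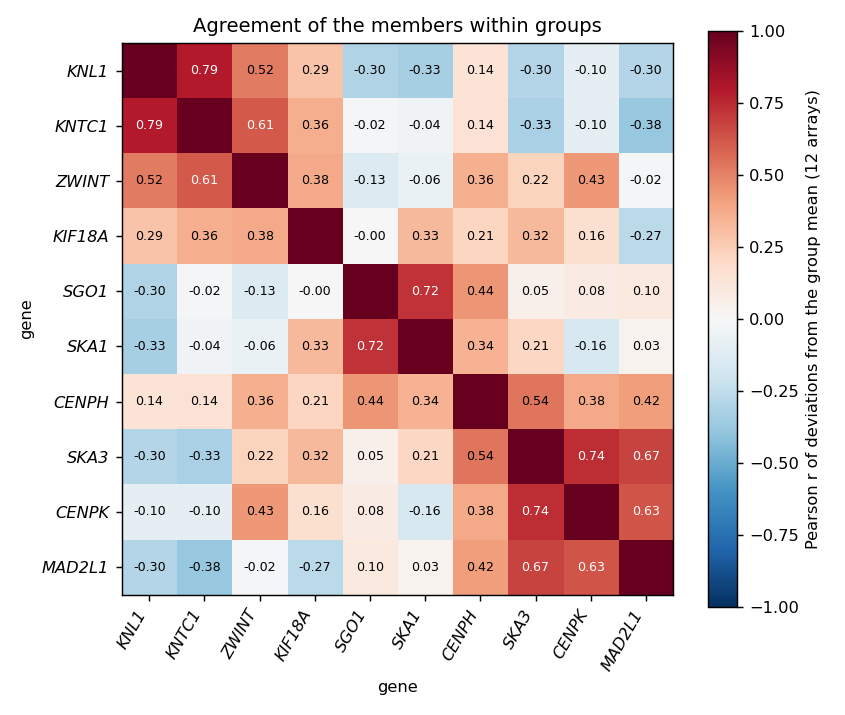
Pearson correlation, across 12 arrays, of each gene's deviations from its group mean for all pairs of the 10 genes, red above and blue below 0. KNL1, KNTC1 and ZWINT form one patch of high values, SKA3, CENPK and MAD2L1 another, and several values between the patches are below 0.

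The mean deviation of the 10 genes was also set against 10688 other named genes in the brighter part of the table (means of at least 4.48, the median over clusters). The 5 genes most like it over the 12 arrays were SNRNP70, a U1 small nuclear ribonucleoprotein gene, with a Pearson correlation of 0.90, the zinc finger gene ZNF25 with 0.89, and PM20D2, SMIM8 and UBP1 with 0.88, 0.88 and 0.87. None of the 5 is a kinetochore gene, and their log2 differences between mimic and control ran from 0.0001 in UBP1 to 0.11 in SMIM8. Their correlations are the highest of 10688 over only 12 arrays, so high values can come from the search alone. The likeness was not tested. Among the 45 other kinetochore genes, the centromere loading factor OIP5 had the highest value, 0.85, and MAD1L1 the lowest, -0.57.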

How the data were processed

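The authors deposited 1 log2 value per transcript cluster and array, and the submitters' processing notes name Affymetrix Expression Console as the tool, with its settings and the genome build not given in the sources used here. A log base of 2 was read from the range of 1.62 to 14.4. Of 53617 clusters, 16098 were named through the platform annotation and RefSeq identifiers (GRCh38.p14), with 0 symbols changed. The highest-mean row was used where a gene had several. The number of arrays limits the precision.

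Values were used as deposited in limma 3.58.1 (R 4.3.3; lmFit and eBayes, no trend, no block), mimic minus control, two-sided, with Benjamini-Hochberg adjustment over all clusters and a threshold of 0.05. The code was tested on simulated data. The 10 genes and all lists were chosen with earlier results of these data known. Named were the 10 genes, listed partners of their complexes, and the 5 genes most like them; other list genes named, CCNB1 and OIP5 among them, were chosen after their values were seen. Start windows and the microRNA are RefSeq sequences. Alternatives were scaling, prior, filters, 1 row per gene, threshold, replicate block and single arrays left out. Same-numbered arrays correlated between -0.11 and 0.08 in their deviations, so numbers were not taken as pairs.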

Additional observations from a re-analysis of the deposited data

Results flagged for a closer look

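In 52 groups of 6 arrays (10 genes, 14 partners and 2 list levels, each in both treatments) the most extreme array was compared with its neighbours, and 5 of the 52 were set off by a wide gap. Chance alone gives about 1 in 20 groups where these are independent and unselected. Here the groups share the same arrays, and the 10 genes were chosen with this contrast known, so nothing is read from the count. For SGO1, mimic replicate 1 was the highest at 9.62, while the remaining mimic arrays ran from 9.42 to 9.47. For KNTC1, mimic replicate 3 was the highest at 9.30, against 9.21 to 9.24, and the log2 difference without it was 0.10. For SKA1, the lowest control was replicate 4 at 8.24, with the others between 8.34 and 8.40, and the difference without it was 0.22. For SGO2, mimic replicate 4 was the lowest mimic array at 6.42, against 6.54 to 6.61, and control replicate 2 was the lowest control at 6.25, against 6.44 to 6.51. The difference of SGO2 was 0.14 without the first of these and 0.07 without the second.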

How the results depend on the processing

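All 10 genes kept higher means in every alternative fit, with medians of 0.13 to 0.17. Only scaling and leaving out arrays could move their differences, since prior, filters, threshold, block and row choice leave them unchanged. The 10 genes were chosen with this contrast known, so nothing is read from their direction. Without single arrays the median ran from 0.14 to 0.17, the genes with groups apart from 6 to 8, the median of the other kinetochore genes from 0.04 to 0.05, and the agreement within groups from 0.13 to 0.26. None of the 45 other genes passed in any fit. Of 53617 clusters, the 6 past the threshold became 39 with a trend and robust prior. With the replicate block or at the stricter adjusted p of 0.01 there were 0, and without single arrays 0 to 6. Filters changed the number tested, and the fit and adjustment were run anew on each smaller set. There 13 of 26809 passed at or above the median mean, 242 of 13405 in the brightest 25%, and 0 of 14884 with a single row for each gene. The cause was not tested. Quantile normalization took the median of the other kinetochore genes to 0.0198. The agreement within groups became 0.32 after centring and 0.11 after quantile normalization. The difference of CDC20 became 0.0103 after centring and ran from -0.0201 to 0.0156 without single arrays. That of KIF18B became -0.0195 after quantile normalization and ran from -0.0199 to 0.0315.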
